A study of Mus musculus with 12 samples.

Results

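Progesterone added to estradiol was examined in the immune cells and the fibroblasts of the mouse mammary gland, by comparing the 3 libraries of mice given E2 + P4 with the 3 libraries of mice given E2 alone at the same level of polybrominated diphenyl ethers (PBDEs, flame retardants). These 6 of the 12 libraries of the series were made by droplet-based sequencing of the RNA of single cells (Chromium v3), in which each transcript end is counted once by its unique molecular identifier (UMI). Of the 31496 cell barcodes in the 6 libraries, 24522 passed the filters, which were 500 or more genes, 1000 or more UMIs and no more than 5% mitochondrial UMIs. Immune cells were the 3373 cells with a UMI of Ptprc, which encodes CD45, and none of Pdgfra or Epcam. Fibroblasts were the 17153 cells with a sum of 20 or more UMIs of the collagen genes Col1a1, Col1a2 and Col3a1 and none of Ptprc, Pecam1 or Epcam. The 6 libraries held 517, 774 and 289 immune cells with E2 and 835, 705 and 253 with E2 + P4, and 2475, 2742 and 2035 fibroblasts with E2 and 2935, 5470 and 1496 with E2 + P4. Here and below, the 3 values of an arm are given in the order no, low and high PBDE. No cell met both definitions.

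All 6 groups were female C57BL/6J mice of 43 weeks that had received 4-vinylcyclohexene diepoxide (VCD, 160 mg/kg per day for 15 days), which depletes ovarian follicles and leaves the ovary in place. In the last week VCD_E2 was given estradiol daily at 1 µg per animal, and VCD_E2_P4 was given in addition a daily 1 mg of progesterone. VCD_Low_E2 and VCD_Low_E2_P4 were fed PBDEs for 20 weeks (per day 0.05 mg/kg of PBDE-47, 0.0028 mg/kg of PBDE-100 and 0.0063 mg/kg of PBDE-153). VCD_High_PBDE_E2 and VCD_High_PBDE_E2_P4 were fed a 20-fold higher dose of each for 1 week, so the dose and the length of PBDE feeding cannot be told apart. Each group was 1 library. The labels do not say how many animals a library held, so the p-values below measure only the spread between libraries. The fits with PBDE level as a block took this level into account, and the exact permutation tests of shares did not. No group received P4 without E2. The matched libraries without hormone, used below for reference, were VCD_Vehicle, VCD_Low_PBDE and VCD_High_PBDE. Their mice were of the same age and had the same VCD and PBDE doses, with neither E2 nor P4.

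Progesterone acts through the progesterone receptor, a nuclear receptor that estrogen induces in a subset of luminal epithelial cells, and these cells pass the signal on by paracrine factors such as RANK ligand (Tnfsf11), Wnt4 and amphiregulin (Areg). At high levels progesterone can also occupy the glucocorticoid receptor (Nr3c1), which most stromal and immune cells express. Fibroblasts of the gland build the collagen matrix around the ducts and include Dpp4+ Pi16+ cells of the interstitial sheath between tissue compartments. The immune cells of the gland include tissue macrophages that make complement C1q, T cells and mast cells.

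The sums of UMIs over immune cells held 2800018 to 8776331 UMIs per library and those over fibroblasts 30386979 to 79097774. Levels are given below as normalised CPM, counts per 1000000 UMIs of the sum after TMM scaling. Sums over marker lists are CPM without this scaling. A sum cannot tell a change in the number of cells of a type apart from a change in RNA per cell. Pairs of the 6 libraries shared 2 to 9 cell barcodes. In the immune sums, whose gate used Ptprc, Pdgfra and Epcam, the 6 macrophage markers together made up 1861 to 5089 CPM and the T cell markers, of which 4 of 6 were in the files, 352 to 845. In the fibroblast sums the 6 fibroblast markers made up 33811 to 49199, which the gate fixes in part, since 3 of them are its collagen genes. Of the immune lists there, which the gate lowers by leaving out cells with Ptprc, the T cell markers stood at 1.10 to 4.15, the macrophage markers at 5.94 to 24.7, the NK and innate lymphoid markers at 115 to 139 and the plasma cell markers at 222 to 472. The plasma cell list includes Xbp1, which is also in the secretory pathway list below. The NK and innate lymphoid list stood at 132 to 162 in the libraries without hormone. How much of either list came from immune cells was not tested. The erythroid markers stood at 255 to 713 in these sums.

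1 library stood apart. In VCD_Low_E2_P4, with 10006 barcodes, 168 of the 705 immune cells (23.8%) carried 20 or more collagen UMIs, against 1.03% to 1.93% in the other 5 libraries. In that library 28.9% of the immune cells had just 1 UMI of Ptprc, against 6.85% to 12.5% elsewhere. Its immune sum also held the fibroblast markers at 4380 CPM, against 600 to 977 in the other 5, and the skeletal muscle markers at 532, against 1.03 to 7.86. Its fibroblast sum held the skeletal muscle markers at 94.7, against 7.80 to 13.5. Over all barcodes its median was 6628.5 UMIs, against 14998 to 17921. The plasma cell markers were at 435, 823 and 4047 with E2 and 911, 10191 and 310 with E2 + P4. Immune results were also computed without these collagen-rich cells and without the low PBDE pair.

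**Figure D1:**
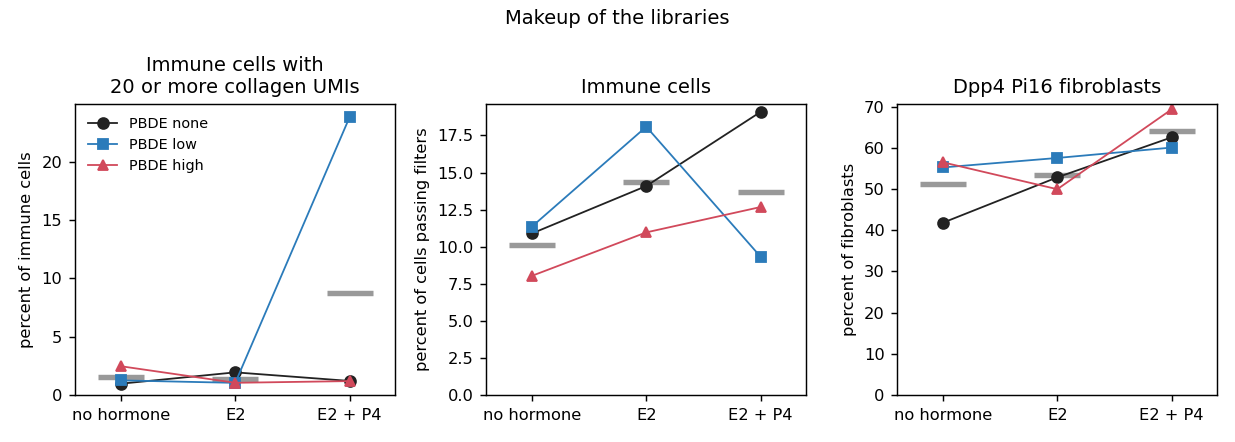
Percent of immune cells with 20 or more collagen UMIs, percent of cells passing filters that were immune, and percent of fibroblasts in the Dpp4 Pi16 gate, for the libraries without hormone, with E2 and with E2 + P4. Each point is 1 library, lines join libraries of 1 PBDE level and grey bars are means of 3, and the point at 23.8% in the first panel is VCD_Low_E2_P4.

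The share of immune cells was 14.4% ± 3.57 with E2 and 13.7% ± 4.97 with E2 + P4 (SD, n = 3 libraries each, two-sided exact permutation p = 0.8), and that of fibroblasts 69.6% ± 6.81 and 71.4% ± 3.98 (exact permutation p = 0.8). With 3 libraries against 3, the smallest p this test can give is 0.1. Within the immune cells, those with 5 or more C1q UMIs made up 17.3% ± 3.85 and 19.6% ± 10.2 (exact permutation p = 0.9), T cells with 2 or more Cd3 UMIs 38.3% ± 11.4 and 31.6% ± 11.6 (p = 0.5), and B cells 0.626% ± 0.392 and 1.97% ± 2.36 (p = 0.6). These shares overlapped between the arms.

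Within the fibroblasts the arms did not overlap. Cells with a sum of 3 or more UMIs of Dpp4 and Pi16 made up 52.8%, 57.5% and 49.9% of the fibroblasts with E2 and 62.5%, 60.04% and 69.3% with E2 + P4. The E2 + P4 libraries were higher at each PBDE level, by 10.5 percentage points on average (53.4% ± 3.83 against 64.0% ± 4.80, SD, n = 3 each, exact permutation p = 0.1, the smallest possible). Cells with at most 1 UMI of both genes made up 41.5%, 37.1% and 44.1% with E2 and 30.6%, 32.3% and 25.3% with E2 + P4 (exact permutation p = 0.1). Median UMIs per fibroblast were 19626, 20078 and 17140 with E2 and 22548, 15482 and 19299.5 with E2 + P4. The depth was thus higher with E2 + P4 at no and high PBDE and lower at low PBDE, where the Dpp4 Pi16 shares were closest. The part of depth in these shares was not tested. The median mitochondrial share of UMIs per fibroblast was 3.01%, 2.94% and 2.74% with E2 and 2.45%, 2.42% and 2.60% with E2 + P4, lower in every E2 + P4 library than in every E2 library, and its part in the results below was not tested. The gates rest on UMI numbers and were not thinned.

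In fibroblasts, P4 raised Cxcl13, the chemokine that attracts CXCR5+ B cells, and no other gene passed the test. Of 14507 genes tested, 1 was called at an adjusted p under 0.05 (0.00689%, edgeR's quasi-likelihood test with Benjamini-Hochberg adjustment and PBDE level as a block), and 1543 had an unadjusted p under 0.05 (10.6%), 817 higher (5.63%) and 726 lower (5.00%) with P4. DESeq2 called 88 higher and 45 lower. The fit has 2 residual degrees of freedom, and in simulated data it called 78.0% of genes that differed by 1 on the log2 scale. The simulated counts had no difference between PBDE levels, so this share need not hold for these data. The count changed when a pair was left out, which leaves 1 residual degree of freedom. Without the high PBDE pair 65 genes were called higher and 23 lower, and without the no PBDE pair 0.

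The Cxcl13 gene (ENSMUSG00000023078) lies on the plus strand of chromosome 5, at chr5:95956951-95961068 of GRCm38. It stood at 40.2, 76.6 and 92.0 normalised CPM in the fibroblasts of the E2 libraries and at 158, 253 and 381 in those of the E2 + P4 libraries. Every E2 + P4 library was above every E2 library, and the difference had the same direction at each PBDE level. The log2 fold change was 1.91 (SE 0.086, edgeR adjusted p = 0.0213), a fold of 3.77, from 2149 to 20173 UMIs per library. The matched libraries without hormone stood at 81.4, 98.3 and 124, between the means of the arms. Of the other libraries of the series, Intact (no VCD and no hormone given) stood at 135 and VCD_E2_ICI (E2 with the estrogen receptor antagonist ICI) at 141. VCD_Vehicle_NormEnv, a further library with VCD and with no hormone or PBDE, stood at 241, which is within the range of E2 + P4. The log2 fold change was 1.84 to 2.01 over 12 other settings, but the call was lost without the no PBDE pair (1.89, edgeR adjusted p = 0.525) and with no replicate block (1.92, adjusted p = 0.461). In immune cells Cxcl13 was at 6.99, 1.92 and 51.6 with E2 and 3.44, 18.6 and 2.15 with E2 + P4.

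The 250 bases before the RefSeq start of Cxcl13 (GRCm38.p6, chr5:95956689-95956938, plus strand) and of 2 genes discussed below, Serpina3c (chr12:104153873-104154122, minus strand) and Txnip (chr3:96557707-96557956, plus strand), are shown, the first because it was the gene that passed the test and the others because they were the 2 fibroblast genes of the naming rule whose window held the motif searched for. The windows were searched on both strands for ACANNNTGT, the palindromic element that the progesterone, glucocorticoid and androgen receptors share, and capitals mark a match. The search covered 31 of the 48 genes that the naming rule gave for the 2 compartments (35 promoters were matched for these), and 3 of these genes held the motif: Ltb4r1, 102 bases before its start, Serpina3c, 73 bases before, and Txnip, 170 bases before. Of all 32851 promoters in the table, 5.84% held it, which is a share of promoters and not of genes. The Cxcl13 window had no match, and the Txnip window overlaps an exon of the antisense gene Gm15441.
Cxcl13: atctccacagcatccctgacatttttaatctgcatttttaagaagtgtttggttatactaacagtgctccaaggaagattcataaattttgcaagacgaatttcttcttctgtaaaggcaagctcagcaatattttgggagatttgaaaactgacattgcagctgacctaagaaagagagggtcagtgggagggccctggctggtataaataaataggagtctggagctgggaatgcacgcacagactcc
Serpina3c: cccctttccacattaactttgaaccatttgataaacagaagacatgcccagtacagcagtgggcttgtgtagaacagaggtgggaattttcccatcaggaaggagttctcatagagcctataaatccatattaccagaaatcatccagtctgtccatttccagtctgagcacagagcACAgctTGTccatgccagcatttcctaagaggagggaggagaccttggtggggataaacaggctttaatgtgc
Txnip: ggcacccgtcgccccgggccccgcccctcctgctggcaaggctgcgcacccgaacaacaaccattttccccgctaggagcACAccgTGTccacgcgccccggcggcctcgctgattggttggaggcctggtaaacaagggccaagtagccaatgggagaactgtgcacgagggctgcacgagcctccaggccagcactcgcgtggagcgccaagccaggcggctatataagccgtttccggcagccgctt

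The other fibroblast genes at the head of the ranking did not pass the adjusted threshold. The 12 highest with P4 by unadjusted p (mean of 10 or more normalised CPM and 1 direction at all PBDE levels) had log2 fold changes of 0.49 to 1.91 and adjusted p-values of 0.0213 to 0.222, and in 11 of the 12 the arms did not overlap (6.71% of all fibroblast genes had all E2 + P4 libraries above all E2 libraries). Since the ranking used this contrast, these counts describe the choice. Il1r2, the decoy receptor for interleukin 1, was at 69.8, 64.3 and 80.7 normalised CPM with E2 and 130.5, 129.6 and 206 with E2 + P4 (log2 fold change 1.08, SE 0.10, edgeR adjusted p = 0.127). It was at 79.6, 73.2 and 77.8 without hormone, near the E2 level. Igfbp4, which binds insulin-like growth factors, was at 538, 655 and 843 with E2 and 1174, 1072 and 1460 with E2 + P4 (0.87, SE 0.10, adjusted p = 0.175). Both genes were thus higher in every E2 + P4 library.

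Serpina3c, a serine protease inhibitor of a multigene cluster whose near-identical members can share reads, was at 8.61, 11.9 and 18.8 with E2 and 22.7, 23.2 and 37.0 with E2 + P4 (1.11, edgeR adjusted p = 0.127). Ces1d, a carboxylesterase of lipid metabolism, was at 7.82, 9.90 and 9.25 with E2 and 15.2, 18.8 and 19.2 with E2 + P4 (0.97, adjusted p = 0.0997). Fbn2, a microfibril protein, was at 14.3, 8.79 and 11.4 with E2 and 34.4, 15.6 and 22.1 with E2 + P4 (1.02, adjusted p = 0.127). In all 3 genes the arms did not overlap. The scavenger receptor gene Scara5 (253, 235 and 284 against 366, 331 and 442) and the retinoic acid enzyme gene Aldh1a3 (92.3, 92.1 and 112 against 132, 147 and 153) also did not overlap, with log2 fold changes of 0.55 and 0.54. Within the Dpp4 Pi16 gate, whose share was higher with P4, Aldh1a3 did overlap, at 147, 138 and 214 with E2 and 206, 227 and 215 with E2 + P4, against 1.60 to 4.89 in the cells low in both genes. Myoc, Srgn, Fam20a and Cyb561 completed the 12, at 0.84, 0.82, 0.49 and 0.72.

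The 12 lowest with P4 had log2 fold changes of -0.81 to -0.35 and adjusted p-values of 0.127 to 0.352, and in 9 of them the arms did not overlap (background 6.78%). Cpe, carboxypeptidase E of the secretory granule, was at 39.8, 37.8 and 37.1 normalised CPM with E2 and 20.4, 23.4 and 21.8 with E2 + P4 (-0.81, SE 0.077, edgeR adjusted p = 0.127). Penk, the enkephalin precursor, was at 56.2, 57.0 and 80.0 with E2 and 32.4, 39.5 and 50.7 with E2 + P4 (-0.66, adjusted p = 0.175). Txnip, which binds thioredoxin and restrains glucose uptake, was at 541, 491 and 561 with E2 and 314, 346 and 316 with E2 + P4 (-0.71, adjusted p = 0.209). All 3 were lower in every E2 + P4 library than in every E2 library, and without hormone they stood at 51.3, 42.0 and 43.0 for Cpe, 103, 95.7 and 61.8 for Penk and 581, 781 and 910 for Txnip. Ggt5, a gamma-glutamyltransferase, was at 173, 199 and 175 with E2 and 120.1, 119 and 125 with E2 + P4 (-0.59, adjusted p = 0.222). Clec14a, Dfna5, Srsf3 and Cirbp likewise did not overlap, at -0.66, -0.52, -0.35 and -0.45, and Hspa1b, Jun and Zfp36 overlapped, at -0.64, -0.48 and -0.42.

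**Figure D2:**
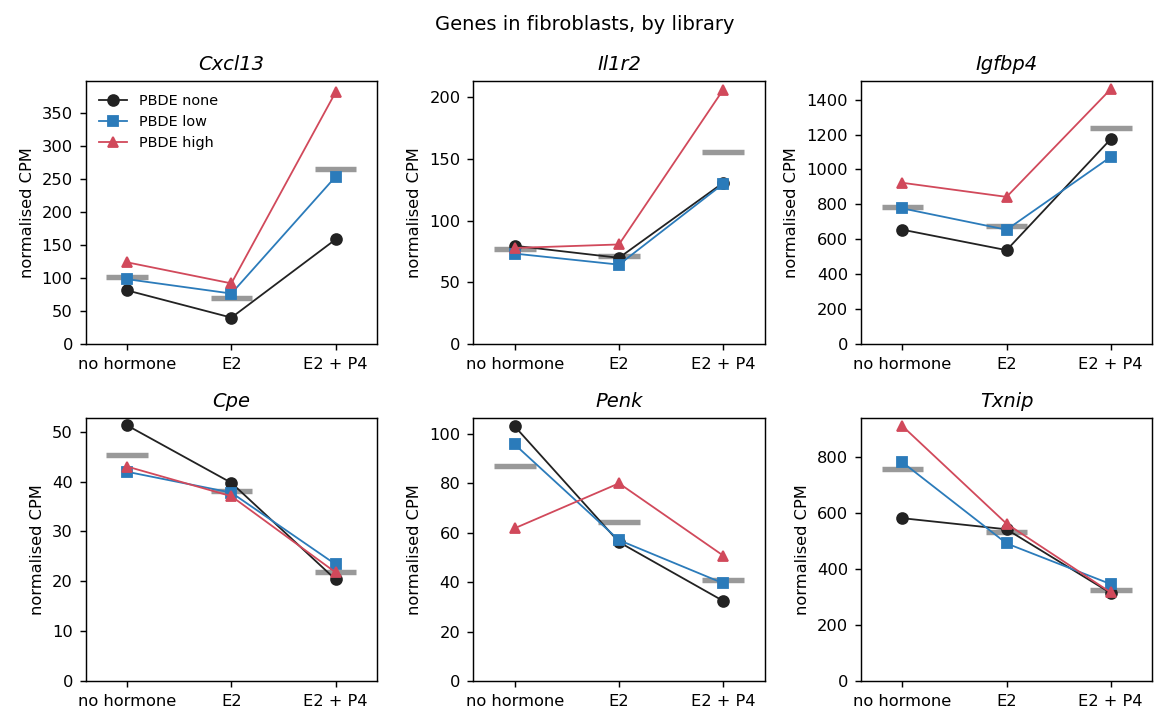
Normalised CPM of Cxcl13, Il1r2, Igfbp4, Cpe, Penk and Txnip in the fibroblast sums of the libraries without hormone, with E2 and with E2 + P4, on linear axes from 0. Each point is 1 library, lines join libraries of 1 PBDE level and grey bars are means of 3, and for each gene the 3 E2 + P4 points lie on 1 side of the 3 E2 points, with Cxcl13 at 158 to 381 against 40.2 to 92.0.

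None of the receptors and classical targets of the hormone passed the test in the sum over all fibroblasts. Pgr itself, the progesterone receptor, was at 10.7, 34.8 and 11.9 normalised CPM with E2 and 4.71, 3.06 and 9.40 with E2 + P4, lower in every E2 + P4 library (log2 fold change -1.67, SE 0.61, edgeR adjusted p = 0.445). Greb1, an estrogen-induced cofactor of the estrogen receptor, was at 9.68, 33.2 and 9.33 with E2 and 4.63, 3.67 and 7.25 with E2 + P4 (-1.57, SE 0.55, adjusted p = 0.433). For both genes VCD_Low_E2 stood far above the other libraries. Esr1, the estrogen receptor, was at 58.0, 53.3 and 54.7 with E2 and 49.2, 49.9 and 57.7 with E2 + P4 (-0.09), and Nr3c1 at 124, 121 and 124 and at 130.3, 135 and 108 (0.01). The list of steroid receptors and coregulators had a median log2 fold change of -0.07, with 1 of 12 genes higher and 2 lower at an unadjusted p under 0.05, against a median of 0.0013 and shares of 5.63% and 5.00% over all genes.

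Genes that glucocorticoids and progesterone are known to induce showed values on both sides. Fkbp5, a chaperone of steroid receptors, was at 16.0, 18.9 and 24.9 normalised CPM with E2 and 16.8, 17.4 and 25.7 with E2 + P4 (log2 fold change 0.00). Tsc22d3, which encodes GILZ, was at 38.1, 31.8 and 117 with E2 and 35.8, 35.7 and 49.7 with E2 + P4 (-0.38, edgeR adjusted p = 0.632). Zbtb16, a zinc finger repressor, was at 17.8, 22.7 and 73.8 with E2 and 17.0, 17.4 and 43.0 with E2 + P4 (-0.41, adjusted p = 0.411), and the clock gene Per1 had a log2 fold change of -0.25. For Tsc22d3 and Zbtb16 the highest value of the 6 was that of VCD_High_PBDE_E2. The whole list of progesterone and glucocorticoid targets had a median of -0.05, with 4 of 27 genes higher and 3 lower at an unadjusted p under 0.05 (14.8% and 11.1%, against 5.63% and 5.00% over all genes). Il1r2 and Cdkn1c, an inhibitor of the cell cycle at 75.6, 65.7 and 217 with E2 and 230, 193 and 257 with E2 + P4 (1.14, adjusted p = 0.364), were among those higher. The list of progesterone receptor effectors had a median of -0.07, with 0 of 13 genes higher and 4 lower (30.8%). Wnt4 was at 4.49, 3.22 and 2.61 with E2 and 2.12, 1.72 and 2.31 with E2 + P4 (-0.75, adjusted p = 0.380), and Tnfsf11 was below 1 in all 6 libraries.

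Of the matrix genes in fibroblasts, more were higher than lower. Of 33 collagen genes tested, 8 were higher and 0 lower at an unadjusted p under 0.05 (24.2%, median log2 fold change 0.17), and of 41 other matrix genes 14 were higher and 3 lower (34.1% and 7.32%, median 0.17), against 5.63% higher and 5.00% lower over all genes. None passed the adjusted threshold. Col1a1 was at 4831, 4529 and 6096 normalised CPM with E2 and 8885, 7200 and 6783 with E2 + P4 (0.56, edgeR adjusted p = 0.365). Col1a1, Col1a2 and Col3a1 also define the gate, and without them 5 of 30 collagen genes were higher and 0 lower. Col7a1, the anchoring fibril collagen, was at 3.12, 2.86 and 8.62 with E2 and 18.2, 11.4 and 9.82 with E2 + P4 (1.58, adjusted p = 0.380). Sparc, a collagen-binding protein, was at 4434, 4021 and 5669 with E2 and 7436, 6979 and 6259 with E2 + P4 (0.56, adjusted p = 0.365), and Fbln1, which encodes fibulin 1, was at 258, 303 and 239 and at 360, 440.5 and 543 (0.73, adjusted p = 0.352). Collagens were higher with P4 at no and low PBDE (median differences on the log2(CPM + 1) scale of 0.32 and 0.25) and not at high PBDE (-0.06). The 6 markers of Tnc+ fibroblasts together stood at 1064, 996.5 and 3452 with E2 and 2508, 2209 and 3042 with E2 + P4, likewise higher at no and low PBDE alone. Most of these sums was Postn, 1 of the 6 and also 1 of the other matrix genes. Postn was at 661, 625 and 2711 normalised CPM with E2 and 2085, 1772 and 2607 with E2 + P4. Penk, another of the 6, was lower in every E2 + P4 library. The part of Tnc+ fibroblasts was not tested. The secretory pathway list had a median of 0.07, with 5 of 33 genes higher and 0 lower.

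Complement genes were mostly higher in fibroblasts with P4, none past the adjusted threshold. Of 16 tested, 8 were higher and 0 lower at an unadjusted p under 0.05 (against 5.63% higher over all genes, median log2 fold change 0.46), and in 9 every E2 + P4 library was above every E2 library (background 6.71%). C3, the central component, was at 1025, 1600 and 1357 normalised CPM with E2 and 1860, 1846 and 2583 with E2 + P4 (0.66, edgeR adjusted p = 0.359). Serping1, the C1 inhibitor, was at 1274, 1389 and 1493 with E2 and 1801, 1793 and 2562 with E2 + P4 (0.55, adjusted p = 0.352), and C4b at 474, 596 and 429 and at 761, 661 and 979 (0.67, adjusted p = 0.380). C1qa, C1qb and C1qc, which macrophages make, were at 0.915 to 2.38 with E2 and 1.55 to 7.39 with E2 + P4, highest in VCD_Low_E2_P4. The macrophage markers together stood at 8.03, 6.91 and 5.94 in the fibroblast sums with E2 and 8.90, 24.7 and 11.8 with E2 + P4, with none of the 6 markers at 0 in any of the 6 libraries, and their part in the result was not tested.

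The genes of antigen presentation had low levels in fibroblasts. Of 9 MHC class II genes tested, 7 were higher at an unadjusted p under 0.05 (77.8%, against 5.63% of all genes, median log2 fold change 0.99), but the invariant chain gene Cd74 was at 20.5, 18.4 and 15.2 normalised CPM with E2 and 30.0, 100.3 and 24.7 with E2 + P4, and the median difference was 1.63 at low PBDE against 0.42 and 0.55 at no and high PBDE. Cd74 was highest in VCD_Low_E2_P4, where the macrophage (24.7), B cell (13.1) and plasma cell (472) markers of the fibroblast sums were also the highest of the 6 libraries, and their part was not tested. The resident macrophage list itself had a median of 0.04, with 6 of 22 genes higher and 3 lower (27.3% and 13.6%).

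Among secreted signals of fibroblasts, 8 of 30 chemokines and cytokines, Cxcl13 included, were higher and 3 lower at an unadjusted p under 0.05 (26.7% and 10.0%, against 5.63% and 5.00% over all genes, median log2 fold change 0.29). Of those higher, Ccl3, Ccl4, Ccl5 and Il1b were at 0.234 to 24.9 normalised CPM and highest in VCD_Low_E2_P4, as were the macrophage markers of the fibroblast sums given above, whose part was not tested. Cxcl12 was at 292, 315 and 490.0 normalised CPM with E2 and 273, 262 and 347 with E2 + P4 (-0.29). Of 39 growth factor genes, 7 were higher and 2 lower (17.9% and 5.13%, median 0.11). The WNT-enhancing R-spondins Rspo1, at 3.67, 3.88 and 6.96 with E2 and 10.5, 9.19 and 10.3 with E2 + P4 (1.11, edgeR adjusted p = 0.352), and Rspo3, at 3.31, 2.59 and 4.59 and at 6.60, 6.30 and 9.20 (1.09, adjusted p = 0.127), did not overlap between the arms. Pgf, placental growth factor, was at 4.85, 11.5 and 8.47 with E2 and 3.41, 3.37 and 5.27 with E2 + P4 (-1.01, adjusted p = 0.364).

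Of 29 immediate early and heat shock genes, which respond to tissue dissociation as well as to growth signals, 11 were lower and 0 higher in fibroblasts at an unadjusted p under 0.05 (37.9% lower, against 5.00% of all genes, median log2 fold change -0.11), and none passed the adjusted threshold. The mitochondrial share given above was also lower with P4. Fos was at 4273, 3555 and 4106 normalised CPM with E2 and 2850, 2798 and 2945 with E2 + P4 (-0.47, edgeR adjusted p = 0.352), and Egr1 at 2079, 1865 and 1917 and at 1521, 1445 and 1547 (-0.38, adjusted p = 0.352). Neither overlapped between the arms. Of 19 genes of the adipocyte lineage and lipid uptake 1 was higher and 4 lower (5.26% and 21.1%, median -0.10), with the lipid droplet gene Plin4 at 11.2, 11.9 and 12.7 with E2 and 4.78, 5.64 and 5.59 with E2 + P4 (-1.16, SE 0.087, adjusted p = 0.0997). Of 40 interferon-induced genes, 9 were higher (22.5%, against 5.63% of all genes) and 2 lower (median -0.04), with median differences on the log2(CPM + 1) scale of -0.06, -0.24 and 0.38 at no, low and high PBDE. The cell cycle list (1 of 34 higher, 1 lower, median 0.01), cholesterol synthesis and uptake (0 of 21 in either direction, median -0.03), and the respiratory chain (1 of 90 higher, 1 lower, median 0.03) had no larger share in either direction than all genes. Of 94 ribosomal protein genes 1 was higher and 1 lower at an unadjusted p under 0.05 (median 0.06), but 72 were higher on average, against 7299 of all 14507 genes, and in 16 every E2 + P4 library was above every E2 library (background 6.71%). In the respiratory chain 63 of 90 genes were higher on average, and in 6 every E2 + P4 library was above every E2 library.

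**Figure D3:**
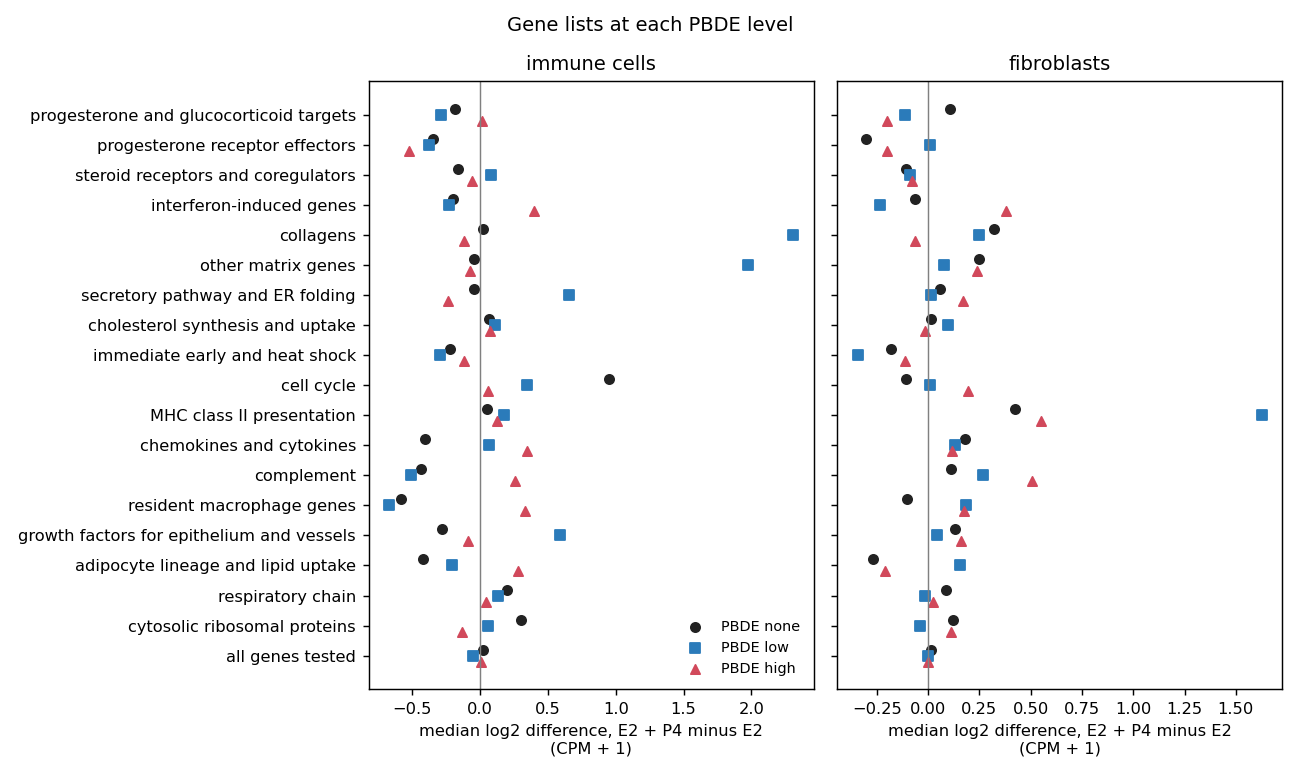
Median over the genes of each list of the log2 difference, on the scale log2(CPM + 1), between the E2 + P4 library and the E2 library of 1 PBDE level, in immune cells and in fibroblasts, with all genes tested in the bottom row. Each point is 1 PBDE level, and collagens in immune cells stand at 2.31 at low PBDE against 0.02 and -0.12 at no and high PBDE.

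The arms did not overlap in Cxcl13 in the Dpp4 Pi16 gate and overlapped in the cells low in both genes, but neither gate nor the difference between them passed the test. In the Dpp4 Pi16 gate it was at 50.4, 95.4 and 159 normalised CPM with E2 and 241, 377 and 529 with E2 + P4 (log2 fold change 1.99, edgeR adjusted p = 0.0642). In the cells low in both genes it was at 23.4, 42.7 and 22.2 with E2 and 15.1, 32.6 and 30.2 with E2 + P4 (-0.22, adjusted p = 0.593). The difference between the gates was 2.21 (SE 0.28) and did not pass the test (adjusted p = 0.105), except without the high PBDE pair (adjusted p = 0.00162). This test was added after seeing the data. For Il1r2 the values were 96.7, 82.2 and 135 against 191, 187 and 278 in the Dpp4 Pi16 gate (1.07, adjusted p = 0.0728) and 25.8, 30.2 and 22.4 against 25.9, 27.4 and 32.5 in the low gate (0.12), a difference of 0.96 (adjusted p = 0.116, and 0.00899 without the high PBDE pair). Igfbp4 was higher in both gates, at 642, 730.1 and 966 against 1429, 1266 and 1687 in the first and 379, 518 and 699.8 against 735, 743 and 926 in the second. In the Dpp4 Pi16 gate 0 of 13792 genes were called by edgeR and 1402 had an unadjusted p under 0.05 (10.2%). Without the high PBDE pair edgeR called 96 higher and 40 lower there, and DESeq2 was not run on the gates.

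More cells of the Dpp4 Pi16 gate held a Cxcl13 UMI with P4, and these cells held more of them. The share was 30.5%, 37.3% and 44.1% with E2 and 53.6%, 55.6% and 65.9% with E2 + P4, and the mean number of Cxcl13 UMIs per positive cell was 4.22, 6.34 and 7.09 against 10.2, 10.5 and 16.8. With each cell thinned to 3000 UMIs, which left out 3, 5 and 7 cells with E2 and 7, 331 and 5 with E2 + P4, the shares were 9.13%, 14.7% and 22.2% against 27.6%, 35.6% and 43.4%. In the low gate the shares were 11.5%, 14.2% and 8.24% against 11.1%, 15.1% and 15.6%. In T cells, which should lack Cxcl13, they were 0.699%, 0.514% and 3.74% against 1.87%, 4.79% and 3.39%, at median depths of 5309, 5459 and 5915 and of 6351.5, 5881.5 and 6605 UMIs, against 23454, 23637 and 18156.5 and 23187, 16773 and 20057 in the Dpp4 Pi16 gate. The low gate lay between them in depth, at 16165.5, 16108.5 and 15694 and at 21097, 13464 and 16161 UMIs. Thinned to 3000 UMIs, the shares were 4.44%, 6.47% and 3.42% against 3.30%, 7.62% and 4.76% in the low gate, and 0%, 0.275% and 1.02% against 0.568%, 3.01% and 1.92% in T cells, where 52 to 364 cells per library were left. In the Dpp4 Pi16 gate the arms did not overlap at either depth, and in the low gate they overlapped at both.

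In the fibroblasts low in Dpp4 and Pi16, 5 of 12851 genes were called (0.0389%), 4 of which rose and 1 fell. Ctla2a, a cysteine protease inhibitor, rose from 5.31, 6.83 and 3.48 normalised CPM with E2 to 25.6, 27.8 and 25.5 with E2 + P4 (log2 fold change 2.34, edgeR adjusted p = 0.0196). Igfbp2, which binds insulin-like growth factors, rose from 4.88, 3.51 and 10.1 to 15.3, 11.5 and 40.4 (1.80, adjusted p = 0.0196), Fbn2 from 12.8, 9.54 and 13.5 to 39.3, 22.2 and 39.3 (1.46, adjusted p = 0.0196), and Nrgn, a calmodulin-binding protein, from 4.46, 5.42 and 19.7 to 19.0, 19.8 and 60.2 (1.83, adjusted p = 0.0196). Zbtb16 fell from 18.7, 20.5 and 63.4 to 8.40, 9.48 and 27.9 (-1.15, adjusted p = 0.0196). The whole fibroblast sum did not call these 5 genes, and this gate called 0 genes without the no PBDE pair or without the low PBDE pair and 52 higher and 18 lower without the high PBDE pair.

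**Figure D4:**
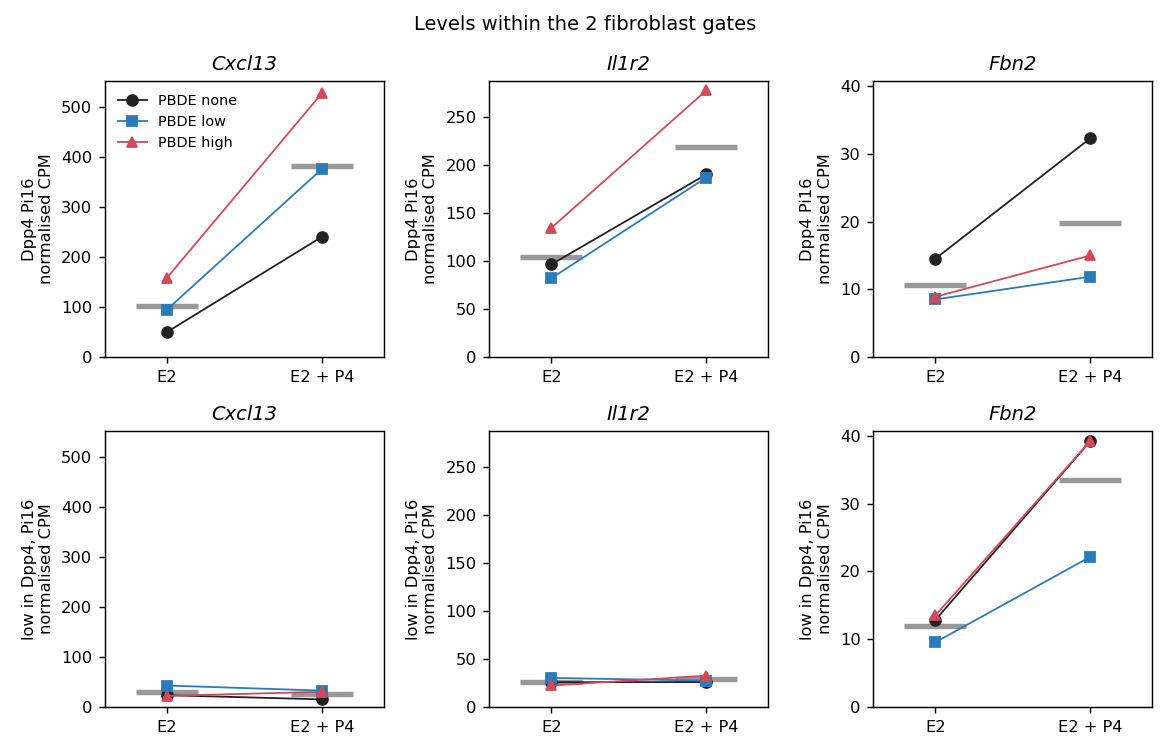
Normalised CPM of Cxcl13, Il1r2 and Fbn2 in fibroblasts of the Dpp4 Pi16 gate (top row) and in those low in both genes (bottom row), with the same linear axis for both rows of a gene. Each point is 1 library, lines join libraries of 1 PBDE level and grey bars are means of 3, and the Cxcl13 points of the arms lie apart in the top row, at 50.4 to 159 against 241 to 529, and overlap in the bottom row.

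In immune cells no gene passed the test. Of 11222 genes tested, 0 were called by edgeR, 432 had an unadjusted p under 0.05 (3.85%), 181 higher (1.61%) and 251 lower (2.24%), and DESeq2 called 4, of which Dnase1l3, Ccl3 and Hist1h2ap were higher and Slc7a11 lower. In simulated data of the size of these sums, the edgeR fit called 27.5% of genes that differed by 1 on the log2 scale. These counts too were drawn without a difference between PBDE levels. Without the low PBDE pair edgeR called 5 genes lower, Mcpt4 and the globin genes Hba-a1, Hba-a2, Hbb-bs and Hbb-bt, of which the alpha pair and the beta pair are each near-identical copies that can share reads. The erythroid markers stood at 3834, 1353 and 1680 CPM in the immune sums with E2 and 328, 1242 and 50.4 with E2 + P4, and their part in these calls was not tested.

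Slc7a11, the cystine transporter that supplies glutathione synthesis, was the immune gene with the smallest unadjusted p. The gene lies on the minus strand at chr3:49892526-50443614 of GRCm38. It was at 160.3, 119 and 91.0 normalised CPM with E2 and 51.4, 45.8 and 35.8 with E2 + P4, so that every E2 + P4 library was below every E2 library (log2 fold change -1.46, SE 0.14, edgeR adjusted p = 0.657, 2.41e-06 to 0.999 over 14 other settings). Without hormone it was at 79.7, 79.6 and 105. Within the immune cells it was at 86.1, 115 and 53.7 against 60.6, 57.2 and 26.3 in the C1q gate, at 29.5, 71.1 and 54.8 against 29.7, 12.7 and 5.06 in T cells, and at 289, 174 and 137 against 67.5, 62.7 and 59.1 in the remaining immune cells. Only in the last of these did the arms not overlap in the level of this gene, and no test of the difference was run. The neutrophil markers stood at 5810, 2102 and 1061 with E2 and 1124, 1080 and 1562 with E2 + P4 in the immune sums, and their part was not tested.

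Hmox1, heme oxygenase 1, was at 535, 505 and 541 normalised CPM with E2 and 294, 249 and 368 with E2 + P4 (log2 fold change -0.82, edgeR adjusted p = 0.941). Hilpda, a lipid droplet gene induced by hypoxia, was at 269, 416 and 358 with E2 and 167, 158 and 227 with E2 + P4 (-0.91, adjusted p = 0.941). Ltb4r1, the leukotriene B4 receptor, was at 142, 145 and 120 with E2 and 87.8, 83.2 and 85.6 with E2 + P4 (-0.67, adjusted p = 0.941). In none of the 3 genes did the arms overlap. Ctla4, Il7r and Areg were among the lower ones too, while the T cell markers stood at 352, 768 and 577 with E2 and 845, 667 and 418 with E2 + P4. Ctla4, the inhibitory receptor of regulatory T cells, was at 123, 100.2 and 99.3 with E2 and 51.5, 61.0 and 53.7 with E2 + P4 (-0.95, adjusted p = 0.941), Il7r, the interleukin 7 receptor, at 108, 127 and 119 and at 78.6, 65.5 and 82.0 (-0.65), and Areg at 299, 329 and 303 and at 221, 179 and 210.5 (-0.61). Cpm, Ifit2, Mmp19 and Ptger2 also did not overlap (-1.01, -0.77, -0.68 and -0.81), and Cd209f did (-0.57). In all, 11 of the 12 lowest genes did not overlap (background 5.03%), by a ranking that used this contrast.

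Of the 12 highest immune genes, 8 did not overlap (background 5.25%). Dnase1l3, a DNase secreted by macrophages and dendritic cells, was at 4.72, 4.73 and 4.84 normalised CPM with E2 and 18.9, 15.5 and 22.2 with E2 + P4 (log2 fold change 1.94, SE 0.20, edgeR adjusted p = 0.657), and at 1.55, 13.1 and 8.11 without hormone. The inflammatory chemokine Ccl3 was at 119, 86.4 and 171 with E2 and 244, 150.4 and 293 with E2 + P4 (0.87, adjusted p = 0.941), higher at each PBDE level though the arms overlapped, and Ccl4 at 275, 276 and 245 and at 544, 319 and 447 (0.69, adjusted p = 0.941). Mylpf, a skeletal muscle myosin gene, was at 79.1 in VCD_Low_E2_P4 and at 0 to 3.56 in the other 5. Hist1h2ap (1.23), a histone of a multigene family, Eln (1.06), Galk1 (0.88), Thap7 (0.65) and Malsu1 (0.52) were further genes of the 12.

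The remaining genes of the 12 belong to cell division. Of 34 cell cycle genes tested in immune cells 13 were higher and 0 lower at an unadjusted p under 0.05 (38.2%, against 1.61% of all genes), with a median log2 fold change of 0.51 against -0.0007 over all genes. Ccnb2, a mitotic cyclin, was at 13.8, 19.6 and 27.0 normalised CPM with E2 and 35.2, 39.6 and 37.2 with E2 + P4 (0.96, edgeR adjusted p = 0.941), Rrm2, the ribonucleotide reductase subunit, at 14.5, 13.4 and 21.5 and at 47.7, 41.7 and 26.5 (1.26), and Cdk1 at 16.4, 21.7 and 16.6 and at 36.6, 38.2 and 21.1 (0.80). Mki67 was at 38.0, 51.4 and 59.5 with E2 and 92.0, 100.3 and 57.3 with E2 + P4 (0.75). The median difference of the list was 0.95, 0.35 and 0.06 at no, low and high PBDE. By cell type Ccnb2 was at 2.40, 14.5 and 29.0 against 52.6, 77.7 and 59.1 in T cells (2.32, adjusted p = 0.167) and at 25.6, 21.0 and 5.802 against 29.3, 28.6 and 30.2 in the C1q gate (0.64, adjusted p = 0.780). In the remaining immune cells it was at 10.6, 23.9 and 36.7 against 18.1, 20.7 and 32.1, lower with P4 at low and high PBDE.

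**Figure D5:**
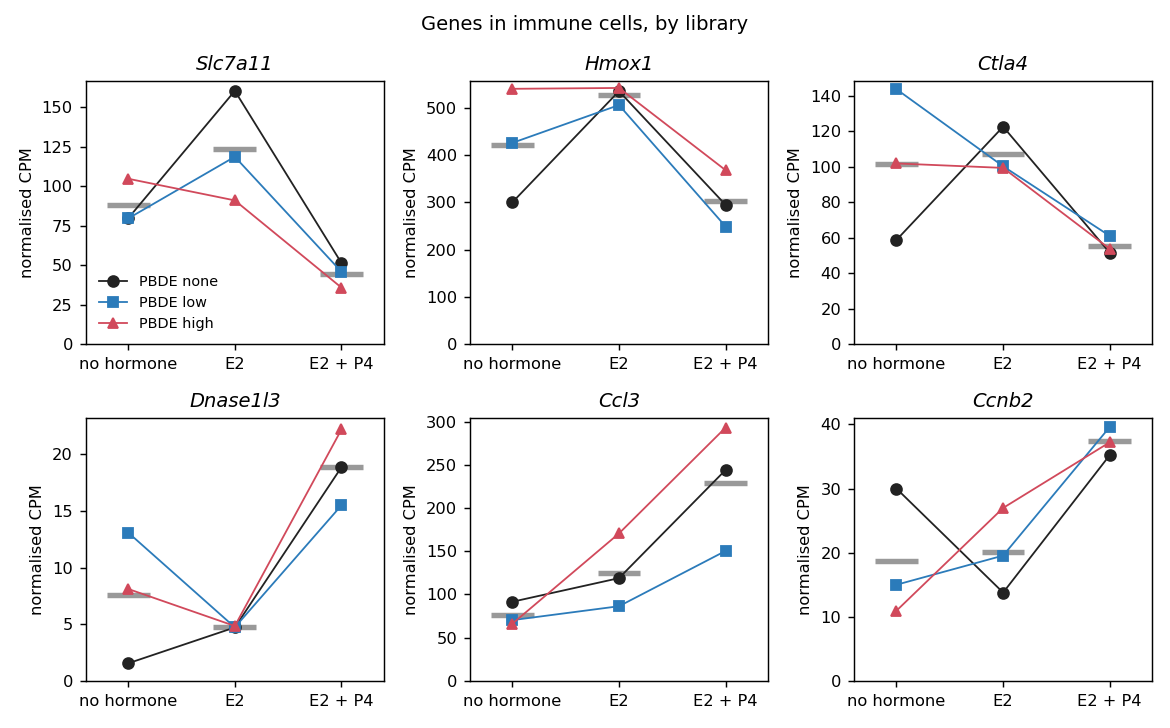
Normalised CPM of Slc7a11, Hmox1, Ctla4, Dnase1l3, Ccl3 and Ccnb2 in the immune sums of the libraries without hormone, with E2 and with E2 + P4, on linear axes from 0. Each point is 1 library, lines join libraries of 1 PBDE level and grey bars are means of 3, and Slc7a11 is at 35.8 to 51.4 with E2 + P4 against 91.0 to 160.3 with E2.

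The hormone target lists had negative medians in immune cells. Of 25 progesterone and glucocorticoid targets, 21 were lower on average, as were 5627 of all 11222 genes (median log2 fold change -0.25), and 1 each was higher and lower at an unadjusted p under 0.05. The median differences of this list on the log2(CPM + 1) scale were -0.19 and -0.29 at no and low PBDE and 0.01 at high PBDE. Fkbp5, Tsc22d3, Zbtb16 and Per1 were at -0.29, -0.40, -0.28 and -0.35 (edgeR adjusted p = 0.941 for each). Of 8 progesterone receptor effectors 2 were lower and 0 higher (25.0% lower, against 2.24% of all genes, median -0.35), namely Areg and Tnfsf11. Tnfsf11, which T cells also make, was at 48.1, 74.8 and 72.3 normalised CPM with E2 and 40.2, 33.2 and 15.0 with E2 + P4 (-1.16, SE 0.36, adjusted p = 0.941), and in T cells at 159, 166 and 212 against 90.2, 95.3 and 50.7 (-1.13, adjusted p = 0.195). Its arms overlapped in neither sum. Of 9 steroid receptors and coregulators 1 was lower and 0 higher (median -0.06). On the log2(CPM + 1) scale the effectors differed by -0.34, -0.37 and -0.52 at no, low and high PBDE, and the receptors and coregulators by -0.16, 0.08 and -0.06. Nr3c1 was at -0.25 and Esr1 at 0.27 on the log2 scale, Wnt4 at -0.62, and Pgr and Greb1 were too low to be tested (0 to 1.41).

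In several other lists in immune cells the differences were unequal across the PBDE levels. Counts of members are again at an unadjusted p under 0.05, which 1.61% of all immune genes passed as higher and 2.24% as lower. Collagens (median log2 fold change 0.97, 1 of 16 higher) and other matrix genes (0.59, 3 of 36 higher) differed at low PBDE by 2.31 and 1.98, and at no and high PBDE by 0.02 and -0.12 and by -0.04 and -0.08, on the log2(CPM + 1) scale. The growth factors (0.21, 0 of 20 higher and 1 lower) differed by 0.59 at low PBDE and by -0.28 and -0.09 at no and high PBDE. The secretory pathway list (median 0.08, 0 of 32 genes in either direction) differed by 0.66 at low PBDE and by -0.04 and -0.24 at no and high PBDE. Resident macrophage genes (median -0.32, 1 of 24 higher) and complement (-0.10, 1 of 15 lower) were lower at no and low PBDE, by -0.59 and -0.67 and by -0.44 and -0.51, and higher at high PBDE, by 0.33 and 0.26. The macrophage markers stood at 3612, 2725 and 3277 CPM in the immune sums with E2 and 2641, 1861 and 5089 with E2 + P4, likewise lower at no and low PBDE and higher at high PBDE. The part of these markers and of the fibroblast markers given above was not tested.

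Immediate early and heat shock genes were lower on average in 25 of 28 cases in immune cells, against 5627 of all 11222 genes (median log2 fold change -0.16), with 2 lower at an unadjusted p under 0.05, namely Fosl2 and Fosb. The respiratory chain was higher on average in 78 of 87 genes, against 5595 of all 11222 (median 0.10), with 1 at an unadjusted p under 0.05, and in 17 every E2 + P4 library was above every E2 library (background 5.25%). Against shares of 1.61% higher and 2.24% lower over all genes at that p, the medians and counts of the remaining lists were 0.13 for MHC class II (1 of 12 lower), 0.02 for chemokines and cytokines (3 of 31 higher, 2 lower), 0.02 for interferon-induced genes (2 of 40 higher, 1 lower), 0.09 for cholesterol synthesis (1 of 21 higher), -0.10 for the adipocyte lineage (1 of 16 lower) and 0.07 for the ribosomal proteins (1 of 93 lower). Among the chemokines Ccl24, an eosinophil attractant, was at 187, 128 and 118 normalised CPM with E2 and 70.1, 77.5 and 88.8 with E2 + P4 (-0.86, edgeR adjusted p = 0.941).

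Within the C1q gate, of 58 to 126 cells per library, 6 of 8427 genes were called (0.0712%, with 6.51% at an unadjusted p under 0.05), and 4 of the 5 that rose are genes of cytotoxic or other lymphocytes. Gzma, granzyme A, rose from 0.556, 0.513 and 1.45 normalised CPM with E2 to 72.6, 31.9 and 37.0 with E2 + P4 (log2 fold change 5.99, edgeR adjusted p = 1.9e-04), and the chemokine Ccl5 from 38.9, 100.0 and 18.9 to 426, 416 and 352 (3.01, adjusted p = 0.00299). The C1q sums held just 1782827, 1932904 and 675772 UMIs with E2. The E2 values of Gzma were therefore at the floor of counting, and the size of its fold change is uncertain. Nkg7, a granule protein, rose from 8.33, 21.0 and 0 to 107, 113 and 33.2 (3.09, adjusted p = 0.00299), and Ms4a4b from 23.9, 26.7 and 1.45 to 166, 96.8 and 35.1 (2.48, adjusted p = 0.00299). This gate did not exclude cells with Cd3 UMIs. Dnase1l3 rose from 12.2, 19.0 and 16.0 to 69.2, 94.6 and 20.5 (2.09, adjusted p = 0.0479), and Il1rl1, the interleukin 33 receptor, fell from 92.8, 105 and 60.9 to 35.6, 44.0 and 34.1 (-1.20, adjusted p = 0.0454). Without the no PBDE pair 0 genes were called in this gate, without the low PBDE pair 5 higher and 3 lower, and without the high PBDE pair 127 higher and 93 lower. Without the low PBDE pair the 4 lymphocyte genes passed the test, while Dnase1l3 (log2 fold change 1.87, edgeR adjusted p = 0.403) and Il1rl1 (-1.19, adjusted p = 0.159) did not, with 1 residual degree of freedom.

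In T cells, 1 of 8529 genes was called (0.0117%). The globin gene Hbb-bt fell from 601, 136 and 393 normalised CPM with E2 to 36.6, 3.86 and 3.38 with E2 + P4 (log2 fold change -4.70, edgeR adjusted p = 0.00791). The gene is 1 of the 6 erythroid markers, whose sums in the immune cells, given above, were far lower with P4 at no and high PBDE but close at low PBDE (1353 and 1242), and their part was not tested. Leaving out 1 pair at a time gave 57 genes higher and 41 lower without the no PBDE pair, 4 and 25 without the low PBDE pair and 1 and 2 without the high PBDE pair. Areg was at 889, 652 and 782 in T cells with E2 and 344, 338 and 545 with E2 + P4 (-0.94, adjusted p = 0.170), and Hilpda at 553, 667 and 690.1 and at 216, 204 and 393 (-1.29, adjusted p = 0.0924), both without overlap.

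No gene was called in both compartments. Of 10728 genes tested in both, 399 had an unadjusted p under 0.05 in immune cells and 1075 in fibroblasts, and 74 in both, which is 18.5% of the immune and 6.88% of the fibroblast list. Over all genes tested in both, 10.0% were in the fibroblast and 3.72% in the immune list. Of the 74, 25 were higher in both, 35 lower in both and 14 opposite. Both sums of a library share its dissociation and its free RNA, so the compartments are not independent, and in 43 of the 74 the mean was 10 or more normalised CPM in both. Nrgn was higher in both, at 18.5, 13.8 and 12.5 normalised CPM with E2 and 19.2, 30.5 and 34.4 with E2 + P4 in immune cells (log2 fold change 0.86) and at 4.19, 2.29 and 13.8 against 19.2, 15.5 and 24.9 in fibroblasts (1.89), without overlap in either. Rrm2 was higher by 1.26 and 0.50. Of those lower in both, Fosb was at 469, 422 and 512 against 356, 337 and 414 in immune cells (-0.34) and at 1262, 1282 and 1230 against 992, 996.5 and 1136 in fibroblasts (-0.28), and Dfna5 was lower by -0.47 and -0.52. Ccl3, higher in immune cells, was higher by 1.19 in fibroblasts too, but its level there was 0.234 to 1.02, and Postn had its highest immune value in the collagen-rich library (189 of 18.4 to 189). In fibroblasts Postn was at 661, 625 and 2711 with E2 and 2085, 1772 and 2607 with E2 + P4 (1.05), higher at no and low PBDE and lower at high PBDE, with overlapping arms.

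The effect of P4 differed between the compartments for 1 of 10728 genes (0.00932%, edgeR's quasi-likelihood test of the interaction, with 544 at an unadjusted p under 0.05, 5.07%). Mcpt4, a protease of connective tissue mast cells on the minus strand of chromosome 14 (chr14:56059629-56062313), was at 213, 182 and 153 normalised CPM with E2 and 33.9, 159 and 10.0 with E2 + P4 in immune cells, and at 1.12, 0.763 and 1.02 against 4.48, 10.0 and 1.30 in fibroblasts. The difference of the log2 fold changes was -4.28 (adjusted p = 0.0450), and neither compartment called the gene by itself. The mast cell genes Tpsb2 (-1.89 and 2.00) and Cma1 (-1.52 and 2.04) followed. The immune cells held 5, 10 and 2 mast cells (10 or more UMIs of mast cell proteases) with E2 and 2, 20 and 2 with E2 + P4. The mast cell markers were at 613, 522 and 394 with E2 and 110.4, 487 and 101 with E2 + P4 in the immune sums and at 3.25, 5.08 and 3.36 against 10.2, 27.8 and 4.64 in the fibroblast sums, and the call was lost without the no or the high PBDE pair, while 1 gene was called higher and 14 lower without the low PBDE pair.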

How the data were processed

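Cells of mammary glands were profiled by 3′ single-cell RNA sequencing (Chromium v3). The authors deposited raw UMI counts per gene and barcode for 27998 genes, made with Cell Ranger 3.1.0 on mm10 per the labels and without normalization. No doublet caller was applied. UMIs were summed per library over the cells of each gate and tested with edgeR 4.0.16 (quasi-likelihood, TMM, filterByExpr by arm, PBDE level as block, 2 residual degrees of freedom) in R 4.3.3, with Benjamini-Hochberg adjustment at 0.05. The block is the PBDE level that the labels give, since each group is 1 library. Same-level libraries deviated together in fibroblasts (correlations of 0.447, 0.200 and 0.484 over 6263 genes) and not in immune cells (-0.201, -0.0839 and -0.0667 over 6284 genes). Normalised CPM used TMM factors over all 12 libraries for the 2 compartments and over the 6 libraries for the gates within them. Sums of marker lists are CPM without TMM scaling. Shares were compared by exact permutation tests, without the PBDE block.

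Within the compartments, C1q macrophages (5 or more C1q UMIs), T cells (2 or more Cd3 UMIs, under 5 of C1q), B cells, Dpp4 Pi16 fibroblasts (3 or more UMIs) and fibroblasts with at most 1 such UMI were summed and fitted in the same way, except B cells, which were too few. Genes were named by rule: the 12 highest and 12 lowest per compartment by adjusted p under 0.05 and then by unadjusted p, with 1 direction at all PBDE levels and a mean of 10 or more CPM, genes of the interaction with the smallest adjusted p, genes that passed the test in a gate, and fixed hormone targets. Some genes that met these rules are not reported here. List members and shared genes with values were picked among those with an unadjusted p under 0.05. The members, gates and 18 gene lists were chosen with earlier results of these data known. DESeq2 1.42.0 was an alternative, beside other filters, gates, size factors and leaving out each PBDE pair. Fits were tested on simulated counts with 200 changed genes and no difference between PBDE levels. In immune cells 11 unchanged genes were called beside 27.5% of the changed ones, and in fibroblasts 16 beside 78.0%. In both, unchanged genes made up a larger share of the calls than the threshold of 0.05. GENCODE M21 (GRCm38) gave the gene positions, and promoters are from RefSeq (GRCm38.p6).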

Additional observations from a re-analysis of the deposited data

Results flagged for a closer look

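The effect of P4 on Mcpt4 differed between immune cells and fibroblasts by -4.28 on the log2 scale in the test of the difference itself (edgeR adjusted p = 0.0450). With immune cells of 20 or more collagen UMIs left out, Mcpt4 and Tpsb2 passed this test, and with stricter gates against free RNA and doublets no gene did. The immune cells held 2 to 20 mast cells per library by the gate given above, and their part in these values was not tested.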

How the results depend on the processing

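In immune cells (0 higher, 0 lower) the count was 3 and 1 with DESeq2 and with no low-count filter, 0 to 1 and 0 to 5 with 1 PBDE pair left out, and 1 and 6 without the low pair and the collagen-rich cells, a setting chosen after seeing the data. In fibroblasts (1 and 0) it was 88 and 45 with DESeq2, 12 and 5 with no low-count filter, 1 lower (Plin4) in a fit of 9 libraries, 0 higher with no replicate block, and 0 to 65 and 0 to 23 with 1 pair left out. For the difference between compartments (0 and 1) it was 0 lower with the stricter gates against free RNA and doublets and with RLE size factors, 2 lower without the collagen-rich cells, and 0 to 1 and 0 to 14 with 1 pair left out. With 1 pair left out, chosen after seeing the data for the gates, the C1q gate gave 0 to 127 higher and 0 to 93 lower, T cells 1 to 57 and 2 to 41, the Dpp4 Pi16 gate 0 to 96 and 0 to 40, the low gate 0 to 52 and 0 to 18, and the difference between both fibroblast gates 0 to 368 and 0 to 276. No gene was called in both compartments under the alternatives run. Of the values for named genes under the alternatives, 1106 kept their direction and side of the threshold, 52 passed it newly, 2 no longer passed (Cxcl13, given above) and 23 changed sign, and 20 of 216 list medians moved by more than the spread between libraries. The sign changed for Rnase6 in immune cells (from -0.0054 to 0.012 with the stricter gates, 0.0030 at a mean of 10 CPM, 0.0058 with DESeq2, 0.027 without collagen-rich cells, 0.019 at a 10% mitochondrial limit, 0.0057 with RLE and -0.058 to 0.086 with 1 pair left out), for Sox4 in fibroblasts (0.013, 0.020 at 10% and -0.079 to 0.084 with 1 pair left out), for Fkbp5 in fibroblasts (0.019, 0.0069 at 10%, 0.0038 with 9 libraries and -0.036 to 0.056) and for Tnfsf11 in fibroblasts (-0.016 with DESeq2 and -0.16 to 0.12). With 1 pair left out it also changed for Tsc22d3 (-0.67 to 0.032) and Nr3c1 (-0.067 to 0.11) in fibroblasts and for Esr1 (-0.35 to 0.75, and -0.41 without the collagen-rich cells), Ly86 (-0.31 to 0.27) and Cxcl13 (-2.55 to 1.12) in immune cells. None of these passed a test. The fits have 2 residual degrees of freedom, 1 with a pair left out, and the cause of the changes in these counts was not tested. The immune sums rest on 253 to 835 cells per library.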
